A study of Ipomoea batatas with 12 samples.

Results

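RAP2-3 (gene G11018) and ERF071 (gene G13450) are 2 ethylene response factor genes of sweetpotato (Ipomoea batatas), and they make up 2 of the 50592 genes listed in the expression tables. They were taken by the IDs that the study's tables give them among the genes up-regulated by combined stress, that is, they were selected on their higher level in DH than in CK in these same libraries. Transcripts were measured by mRNA sequencing in 12 libraries of the purple-fleshed cultivar Xuzishu 8, with 3 libraries in each of 4 groups. The groups were unstressed plants in plain Hoagland solution (CK), heat (HT), drought imposed with PEG6000 in the solution (DR), and the same PEG6000 together with heat (DH). Field-grown plants had been moved to hydroponic culture in all groups. Each library held RNA mixed in equal amounts from leaves and storage roots (the tuberous roots of the labels) over the time points of the treatment, so neither tissue nor time can be read separately, and CK stood in a growth chamber of its own, so chamber and stress cannot be told apart. In such bulk samples fewer cells of a type and less RNA per cell cannot be told apart either. The study describes its collections in triplicate as biological, but the number of plants behind each pool is not stated, so the spread given here is that between pools.

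Ethylene response factors are transcription factors with an AP2/ERF DNA-binding domain, and many of them bind the GCC box in the promoters of stress and defence genes. The hormone ethylene is made from methionine by way of S-adenosylmethionine. In Arabidopsis, the proteins named RAP2.3 and ERF71 (also called HRE2) both belong to group VII of this family. Those proteins are destroyed in the presence of oxygen through their N-terminal end, persist when oxygen is short, and are known for switching on the genes of low-oxygen metabolism. RAP2.3 of Arabidopsis was first described as an ethylene-responsive DNA-binding protein. The sweetpotato genes carry these names by annotation, and no sequence of either was used here.

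RAP2-3 stood at 8.56, 17.86 and 7.71 FPKM (fragments counted per length of transcript and scaled to the mapped fragments of the library) in CK1, CK2 and CK3. In the heat libraries HT1, HT2 and HT3 it stood at 827.48, 1369.66 and 185.69 FPKM. The drought libraries DR1, DR2 and DR3 gave 835.64, 363.41 and 602.66 FPKM. All 3 stressed groups held RAP2-3 above the control in every library, with DH1, DH2 and DH3 at 1921.92, 395.05 and 623.86 FPKM. The lowest stressed library, HT3, was 10.4-fold above the highest control library, CK2. The group means were 11.4 ± 5.63 FPKM in CK, 794 ± 593 in HT, 601 ± 236 in DR and 980 ± 824 in DH (SD, n = 3).

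ERF071 was the less abundant gene of the pair in every library, and FPKM is scaled by transcript length, so the levels can be set side by side. In CK1, CK2 and CK3 it stood at 2.24, 1.81 and 1.46 FPKM. The 3 heat libraries HT1, HT2 and HT3 gave 118.79, 254.55 and 22.5 FPKM. Under drought, DR1, DR2 and DR3 gave 124.51, 42.01 and 105.94 FPKM. Again no stressed library overlapped the control, and DH1, DH2 and DH3 stood at 495.92, 68.66 and 93.68 FPKM. The lowest stressed library, again HT3, was 10.04-fold above the highest control library, CK1. Group means were 1.84 ± 0.391 FPKM in CK, 132 ± 117 in HT, 90.8 ± 43.3 in DR and 219 ± 240 in DH (SD, n = 3).

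**Figure D1:**
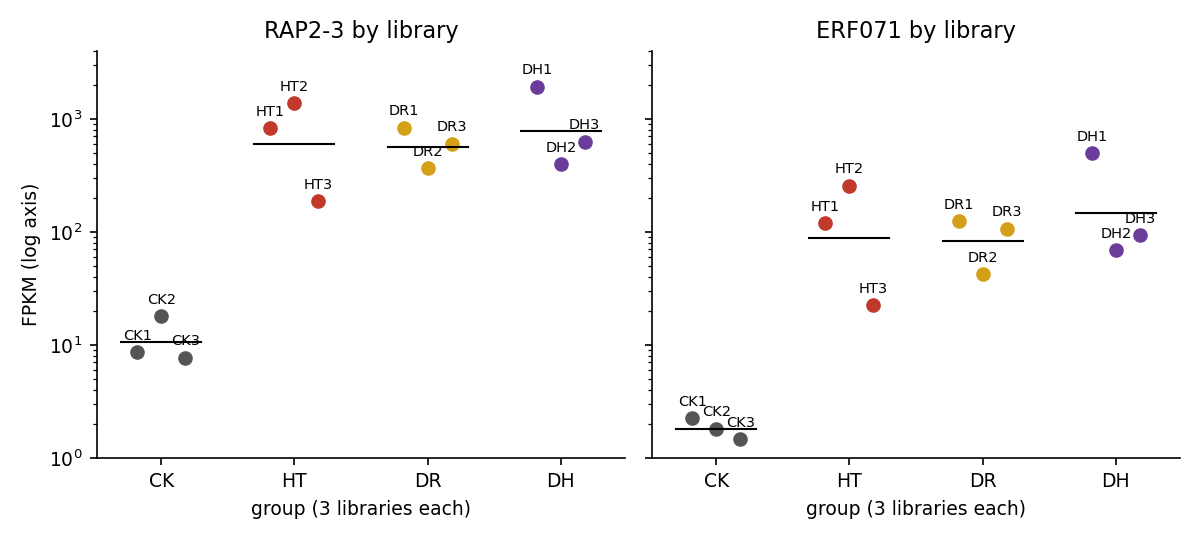
FPKM of RAP2-3 (left) and ERF071 (right) on a log axis in the 12 libraries, by group. Each point is 1 library and each line the geometric mean of 3; both genes lie apart from CK in all 9 stressed libraries, and HT3 is the lowest stressed library in both panels.

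As a description of the contrasts that chose the genes, the difference in mean log2(FPKM + 1) from CK was 5.68 for HT, 5.61 for DR and 6.07 for DH in RAP2-3, each with a standard error of 0.998 from 1 fit of all 12 libraries. In ERF071 it was 4.99 for HT, 4.89 for DR and 5.72 for DH, each with a standard error of 1.03. On the FPKM themselves, the ratio of geometric means to CK was 56.3 (HT), 53.8 (DR) and 73.8 (DH) for RAP2-3. For ERF071 the same ratio was 48.6, 45.4 and 81.4. Among the 11208 tested genes listed in all 12 libraries, 11.0% lay higher in every HT library than in every CK library, 7.08% did so for DR and 5.04% for DH. A separation of all 9 stressed libraries from all 3 CK libraries, as both genes show, was found upward in 188 genes, or 1.68%. Nothing is read from these shares, because the same contrasts selected the pair.

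The rise under DH was far short of the sum of the rises under HT and DR on the log2 scale. The difference DH less HT less DR plus CK was -5.22 (SE 1.41) for RAP2-3 and -4.16 (SE 1.45) for ERF071. With upper-quartile scaling it was -3.95 and -2.92. These values use the contrasts that selected the genes and were given no test. The median of the same difference over all tested genes was -0.73, and -0.04 with that scaling. A gene raised by about the same amount in HT, DR and DH has a difference near minus that rise. Few tested genes were called against CK, so that median does not show the shortfall to be particular to the pair. The difference is not given here for other genes raised as the pair was.

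Summed FPKM of the tissue markers was lower in HT and DH than in CK, whereas under DR the leaf sum stayed within the range of CK and the storage root sum overlapped it. The 7 of 9 leaf genes listed in all 12 libraries, mainly enzymes of chlorophyll synthesis and carbon fixation, summed to 1140 to 7140 FPKM in CK and 1150 to 3120 in DR. The sums were 129 to 442 in HT and 36.2 to 562 in DH. The 5 starch genes used for the storage root summed to 33.8, 103 and 1760 FPKM in CK1, CK2 and CK3. The leaf sum fell in that order, from 7140 to 2260 and 1140. Under stress the storage root sum was 1.93 to 20.2 in HT, 6.59 to 45.3 in DR and 0.56 to 28.7 in DH. None of these markers was at 0 in every library of a group. In all 9 stressed libraries, 0 of 7 leaf and 2 of 5 storage root genes lay below every CK library. The share of all tested genes that did so was not computed, so nothing is read from these counts. Both lists come from the study's tables of genes lowered by stress, and their part in the rise of RAP2-3 and ERF071 was not tested.

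Whether heat and drought differed in the level of the pair was tested with limma over 12295 genes, with Benjamini-Hochberg adjustment. The rises of HT and DR over CK were known when the pair was chosen, so this test is not wholly free of that choice. By mean level both genes stood in the order DH, HT, DR and CK. Because the pair was selected on its level in DH, the place of DH in that order and its differences from HT and DR are descriptions, with intervals and no test. RAP2-3 differed between HT and DR by 0.07 on the log2(FPKM + 1) scale, with a 95% interval from -1.99 to 2.12 (limma adjusted p = 0.99). The mean of DH lay above HT by 0.39 (-1.67 to 2.45) and above DR by 0.46 (-1.60 to 2.51). The libraries of the 3 groups overlapped, DH1 being the highest of all and HT3 the lowest.

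ERF071 had the same order of means, with larger differences toward DH. HT and DR differed by 0.11 on the log2(FPKM + 1) scale (95% interval -2.01 to 2.22, limma adjusted p = 0.98). The mean of DH lay above HT by 0.73 (-1.39 to 2.85) and above DR by 0.84 (-1.28 to 2.95). The intervals leave room for a 7.19-fold excess of DH over HT and a 7.73-fold excess over DR, so these libraries do not show that the stresses act alike on either gene. Of all tested genes, 0.0163% were called higher and 0.0488% lower in HT than in DR, with calls set at a limma adjusted p below 0.05 and a difference larger than 1 on the log2 scale. In DH with HT limma called 0 genes (0%), with 597, or 4.86% of those tested, at an unadjusted p under 0.05. In DH with DR it called 0.0407%, all lower in DH, with 3.54% at an unadjusted p under 0.05. For HT with DR that unadjusted share was 7.30%.

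**Figure D2:**
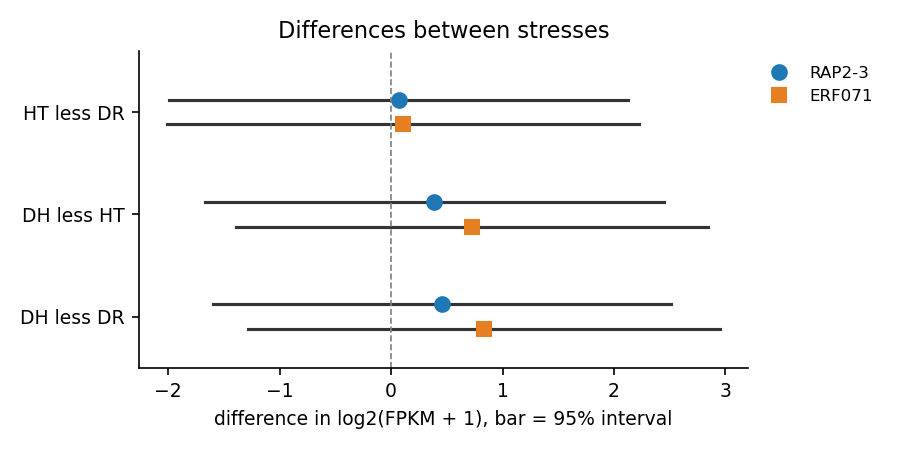
Difference between stressed groups in mean log2(FPKM + 1) for RAP2-3 (circles) and ERF071 (squares), with 95% intervals from limma, n = 3 libraries a group. All 6 intervals include 0, and those of ERF071 reach 2.85 for DH less HT and 2.95 for DH less DR.

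The direction of these differences rested on single libraries. Without HT3, HT exceeded DR by 0.91 in RAP2-3 and 1.07 in ERF071, and without HT2 the values were -0.53 and -0.65. DH less HT became -0.45 and -0.24 without HT3, and DH less DR became -0.19 and -0.04 without DH1. When libraries were scaled by their upper quartile, HT less DR turned to -0.58 and -0.52, while DH less HT became 1.56 and 1.87 and DH less DR 0.98 and 1.36. The median difference of all tested genes stood at 0.23 for HT less DR, -0.65 for DH less HT and -0.40 for DH less DR, and became -0.13, 0.01 and -0.15 after that scaling.

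The place of each gene within its own library does not depend on scaling. It can depend on how many genes a library detects, and genes above 0 FPKM numbered from 13653 in DH2 to 33410 in CK3. RAP2-3 ranked between percentiles 66.8 and 86.9 of the 11208 genes in CK and between 96.5 and 99.6 in the stressed libraries. By abundance it held place 41 of these genes in DH1 and place 42 in HT2. ERF071 ranked between percentiles 25.1 (CK3, 1.46 FPKM) and 62.7 (CK2, 1.81 FPKM) in CK. Among stressed libraries it stood at percentile 79.0 in HT3 and between 92.3 and 98.3 in the other 8. As a share of all FPKM of a library, RAP2-3 went from between 0.000708% and 0.00139% in CK to between 0.0128% and 0.148% under stress.

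The ratio of RAP2-3 to ERF071 in FPKM was 3.82, 9.87 and 5.28 in CK1, CK2 and CK3. Under heat it was 6.97, 5.38 and 8.25, under drought 6.71, 8.65 and 5.69, and under both 3.88, 5.75 and 6.66, in library order. Over the 9 stressed libraries the mean ratio was 6.44 ± 1.47 (SD), while the FPKM of RAP2-3 spanned 10.4-fold and that of ERF071 22.0-fold. The ratio thus varied less than either gene, and its range was widest in CK, where ERF071 was near 2 FPKM and its counting error is unknown.

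**Figure D3:**
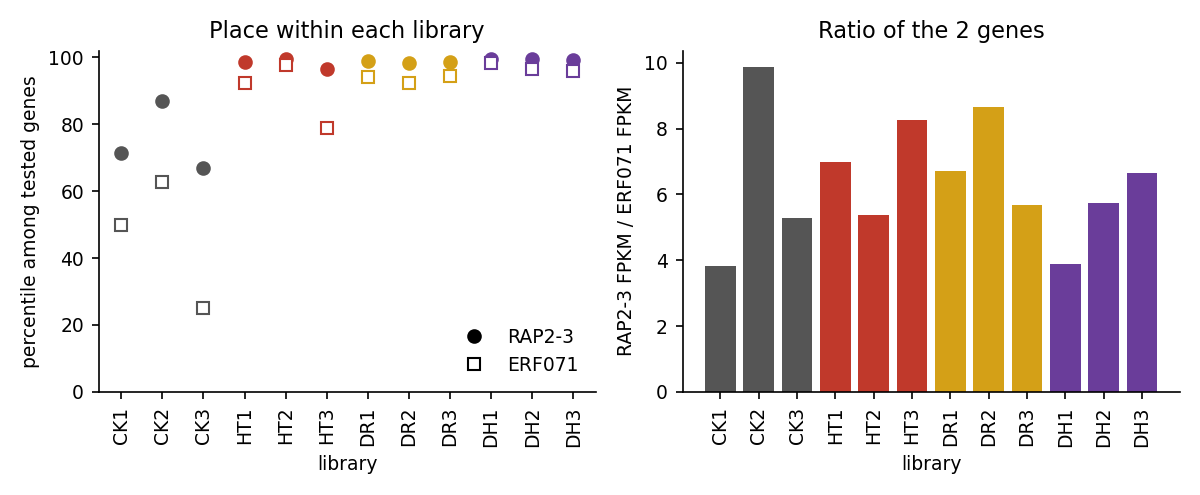
Left, percentile of RAP2-3 (filled circles) and ERF071 (open squares) among the tested genes of each library; right, RAP2-3 FPKM divided by ERF071 FPKM, 1 bar per library, coloured by group. The stressed libraries lie near the top at left apart from ERF071 in HT3 (percentile 79.0), and the bars run from 3.82 (CK1) to 9.87 (CK2).

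Within stressed plants the levels of the pair followed each other library by library. Over the 9 stressed libraries, log2(FPKM + 1) of ERF071 and RAP2-3 correlated with Pearson's r of 0.986 (two-sided exact permutation p = 8.3e-06 over 362880 pairings, adjusted p = 1.7e-05 over 2 coefficients). Spearman's rho was 0.983 (exact permutation p = 5e-05, adjusted p = 5e-05). Both tests take the libraries as exchangeable and include DH, which selected the genes. In deviations from the group means 63 genes, ERF071 included, exceeded an r of 0.9 with RAP2-3. The p-values therefore do not show a link particular to the pair. Without HT3 and DH1, the libraries farthest from the median of RAP2-3, r was 0.967 over 7 libraries (exact permutation p = 0.0006). A restriction to the 6 HT and DR libraries was added after the values were seen, because DH with CK had selected the genes. There r was 0.991 (exact permutation p = 0.0014, adjusted p = 0.0028) and rho was 1.0 (exact permutation p = 0.0028, adjusted p = 0.0028). With 720 pairings these exact p-values are the smallest possible for each coefficient. HT and DR with CK were also known when the pair was chosen, so the restriction is not free of the selection.

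Ordered from the highest level down, both genes ran DH1, HT2, DR1, HT1 and ended with DH2, DR2, HT3. They shared 7 of 9 places, and the exchange was between DH3 and DR3, which lay side by side in both orders. ERF071 varied more steeply than RAP2-3, with a slope of 1.27 in log2 FPKM of ERF071 per unit of log2 FPKM of RAP2-3 (1.18 to 1.3 with any 1 library left out). Measured as deviations from the group means, so that no difference between groups enters, r was 0.990 over the 9 stressed libraries. Groups of 3 are too small for a correlation within each. In CK the order was not shared, since CK2 was highest for RAP2-3 and CK1 for ERF071. The correlation was 0.982 or 0.983 under the other scalings of the libraries and 0.981 on percentiles within each library.

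**Figure D4:**
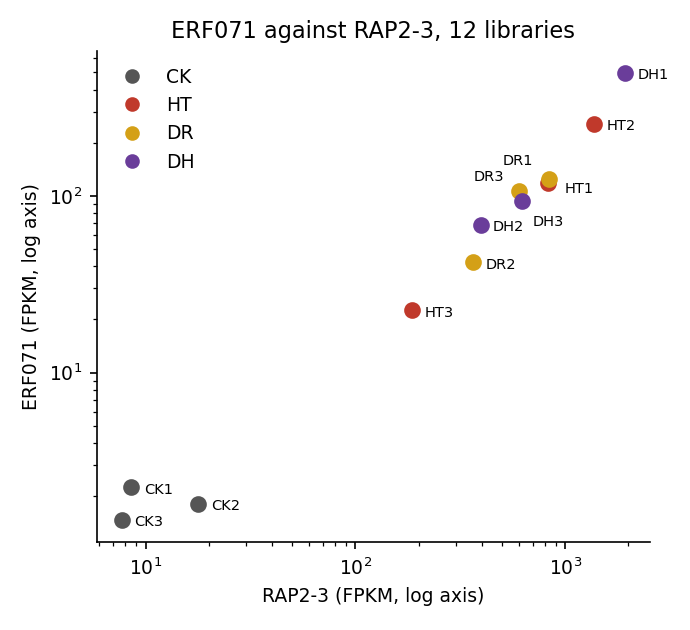
ERF071 against RAP2-3, both in FPKM on log axes, 1 point per library, coloured by group. The 9 stressed libraries follow 1 rising line from HT3 to DH1 (r 0.986), and the 3 CK libraries lie apart at the lower left.

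Among the 11207 other genes, the gene most like RAP2-3 over the 9 stressed libraries was ERF071, and the reverse also held. The next best r was 0.943 for RAP2-3 and 0.935 for ERF071, and the median over all genes was 0.08 and 0.06. An r above 0.9 was reached by 11 genes for RAP2-3 and by 4 for ERF071. Each also ranked first for the other over all 12 libraries, where the separation of CK enters. These correlations are descriptions, over libraries that share their scaling. Under the 3 other scalings ERF071 kept rank 1 for RAP2-3, although the next gene came as close as 0.980 with the upper quartile.

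**Figure D5:**
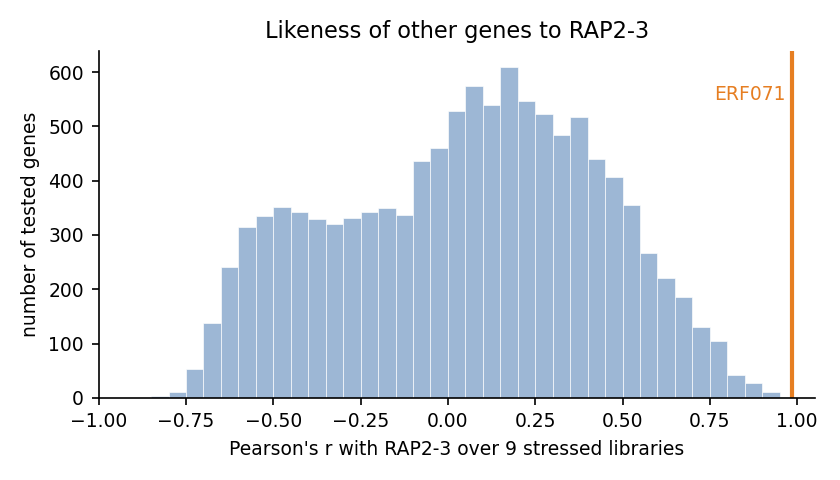
Number of tested genes by Pearson's r with RAP2-3, over log2(FPKM + 1) in the 9 stressed libraries. The line marks ERF071 at 0.986, to the right of every other gene, of which the closest reached 0.943.

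Over the stressed libraries the closest genes without a symbol were G37633 (r 0.943) and G38189 (r 0.940) for RAP2-3, and G20681 (r 0.935) and G37633 (r 0.926) for ERF071. G38189 shows how likeness over stressed libraries can go without a separation from the control. It stood at 267.84, 278.86 and 160.3 FPKM in CK1, CK2 and CK3, and at 737.35, 552.98 and 125.92 in HT1, HT2 and HT3. The drought libraries gave 490.86, 220.24 and 466.99 FPKM and the DH libraries 1090.28, 178.38 and 378.88, so that it overlapped CK in every stressed group. In deviations from the group means G37765 (r 0.996) even ranked before ERF071 (r 0.990) for RAP2-3, and 63 genes exceeded 0.9. G37765 stood at 25.88, 24.29 and 93.15 FPKM in the CK libraries and at 51.3, 74.71 and 7.47 in the HT libraries, so that its HT2 and HT3 were also the highest and lowest under heat. Part of the library order of the pair was therefore shared by genes that stress did not separate from CK.

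Over all 12 libraries the closest unnamed genes were G45488 and G14020, with r of 0.969 and 0.959 with RAP2-3 and of 0.948 and 0.949 with ERF071. G45488 stood at 0.21 to 0.48 FPKM in CK and 11.39 to 44.41 in the stressed libraries. G14020 went from 1.11 to 4.36 FPKM in CK to 87.67 to 570.33 under stress. Of the genes with a symbol, HPD (G38888) came first, at rank 15 for RAP2-3 (r 0.912) and 13 for ERF071 (r 0.910). HPD encodes an enzyme of tyrosine breakdown that supplies the head group of tocopherols and plastoquinone. Its level ran from 18.74 to 21.07 FPKM in CK and from 145.86 (DH2) to 1754.57 (DH1) under stress.

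AA5GT (G38386), which 1 of the study's tables describes instead as a universal stress protein, followed with r of 0.901 and 0.905. The third named gene was Os04g0679100 (G3982, a clathrin light chain by its description) for RAP2-3 with r of 0.884, and PAO (G37418) for ERF071 with 0.876. Over the 9 stressed libraries, genes with a symbol came far down the order. RAB28 (MSTRG.10419) was first, at rank 172 for RAP2-3 (r 0.757) and 81 for ERF071 (r 0.777). AA5GT had r of 0.741 and 0.708, and MBF1C (G15814), a transcriptional coactivator of the heat response in Arabidopsis, had r of 0.610 and 0.619.

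Genes around ethylene and the other regulators of the same tables were examined beside the pair, against CK. Of 18 such genes, 16 passed the filter of 1 FPKM in 3 libraries. Limma called 0 of these 16 in any of the 3 comparisons, where it called 0.569% of all tested genes raised and 0.472% lowered in HT, 0.586% and 0.195% in DR, and 0.577% and 0.968% in DH. At an unadjusted p under 0.05 there were 9 of 16 in HT, 5 in DR and 15 in DH, beside 15.1%, 7.22% and 11.6% of all tested genes. The study chose all of them on these same libraries, so none is independent evidence of its direction.

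Of the 4 genes that supply methionine and S-adenosylmethionine, the precursor of ethylene, 2 were tested and neither was called. METE (G17900), a methionine synthase, stood at 3.81, 6.92 and 48.86 FPKM in CK and at 0.81, 0.2 and 0.15 in DH, where the log2 difference was -3.19 (SE 0.94, limma adjusted p = 0.087). Under HT it stood at 2.62, 0.25 and 1.16 FPKM, likewise below every CK library, and under DR at 1.24, 3.03 and 7.05, where only DR3 reached into the range of CK. METK3 (G26587), an S-adenosylmethionine synthase, had a log2 difference of -2.54 in DH (SE 0.95, limma adjusted p = 0.23). It stood at 0.72, 4.85 and 32.3 FPKM in CK and at 0, 0 and 0.69 in DH, while its HT and DR libraries overlapped CK. The DH libraries lay below CK only narrowly, with DH3 at 0.69 and CK1 at 0.72 FPKM, both under 1 FPKM. The median of these 2 genes was -2.23 in HT, -1.67 in DR and -2.87 in DH, beside 0.30, 0.07 and -0.37 over all tested genes. The second METE gene (G45403) and SAMS3 (G2529) did not pass the filter, with at most 7.98 and 1.33 FPKM in any library, both in CK3.

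The 2 loci that the study lists under response to ethylene, MSTRG.4469 and MSTRG.4470 (both CHLN), were not called in any comparison, and DR2 has no value for either. MSTRG.4470 stood at 124.01 to 135.36 FPKM in CK and at 4335.81, 137.26 and 1788.31 in DH1, DH2 and DH3, a log2 difference of 2.99 (SE 1.29, limma adjusted p = 0.34). It was at 16.57 FPKM in HT2, where RAP2-3 had its second highest level. The median of the pair of loci was 0.59 in HT, 2.96 in DR and 3.43 in DH.

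The 5 other regulators of the table of DH-raised genes had a median log2 difference of 2.54 in HT, 1.89 in DR and 2.39 in DH, with 0 called by limma. MBF1C stood at 118.99 to 220.39 FPKM in CK and 613.96 to 4805.21 in DH (log2 difference 3.67, SE 0.98, adjusted p = 0.056). HSF24 (G19416), a heat stress factor, went from 0.1 to 0.36 FPKM in CK to 18.55, 3.33 and 33.53 in HT1, HT2 and HT3 (3.58, SE 0.93, limma adjusted p = 0.06). Its order under heat was not that of RAP2-3, which was highest in HT2.

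TGA6 (MSTRG.21623), a bZIP factor of salicylic acid signalling in Arabidopsis, was listed at 0 in all CK libraries and at 4.31 and 38.63 FPKM in DR1 and DR3, with no value for DR2. Its log2(FPKM + 1) difference in DR was 3.86 (SE 1.02), and its limma adjusted p moved from 0.082 to 0.047 with the replicate number as a block. That block was fitted over all 12 libraries, and a pairing of same-numbered libraries was not shown. NAC073 and WRKY6, the remaining members, had differences of 1.83 (adjusted p = 0.49) and 3.57 (adjusted p = 0.082) in DH. The 7 regulators of the DH-lowered table (SPL9, BEL1, ARF6, LBD4, MYB106, GATA19 and IDD14) had medians of -2.06, -1.15 and -2.61 in HT, DR and DH, again with 0 called. SPL9 came closest, at 3.18 to 11.9 FPKM in CK and 0 to 0.17 in DH (-2.61, SE 0.70, limma adjusted p = 0.061).

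Facts of the libraries that touch these values are few. The 10 most abundant genes held between 34.7% and 89.7% of the summed FPKM. From the highest stressed library of RAP2-3 down, the share was 57.0% in DH1, 71.8% in HT2, 54.9% in DR1 and 34.7% in HT1. It was then 77.4% in DH3, 57.4% in DR3, 89.7% in DH2, 75.3% in DR2 and 70.8% in HT3. The part of this share in the level of the pair was not tested. Near-identical copies are common in this polyploid, and reads that fit more than 1 copy, or both factors, could have been split between genes, which was not tested.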

How the data were processed

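Per the submitters' processing notes, trimming used cutadapt 1.9, alignment HISAT2 2.0.4 and assembly StringTie 1.3.4d. The authors deposited a table of FPKM for every library, to 2 decimals. FPKM correct for transcript length and aligned fragments. Whole counts were not recovered, so the depth and counting error of a value are unknown. The sums lay between 1088868 and 1472561 FPKM per library. The labels and the methods name different extraction reagents and sequencers. DR2 lists 49073 genes, so 1087 tested genes were fitted without it.

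Genes with at least 1 FPKM in at least 3 libraries were fitted with limma 3.58.1 (R 4.3.3, trended eBayes, two-sided tests) on log2(FPKM + 1), 12 libraries in 1 fit, and called at a Benjamini-Hochberg adjusted p under 0.05 and a log2 difference beyond 1. For the level of the pair, p-values are given only for HT with DR, since DH with CK selected it. HT and DR with CK were also known at that choice, so the HT with DR test is not wholly free of it. The permutation p-values of its correlation over 9 and 7 libraries do include DH libraries. The code was tested on simulated data. Correlations were computed in Python 3.11.15 with scipy 1.17.1. The notes also name DESeq2 and edgeR, which were not used here. The pair, the gene lists and the tests were chosen with earlier results of these data known. Genes named are the pair, the list members and, for likeness, the 5 most alike (at most 2 without a symbol) and the 3 most alike with a symbol. G37765 and the libraries singled out were named after their values were seen. Symbols come from the study's tables (228 genes); 0 IDs matched the RefSeq table (assembly IBA_r1.0), so no coordinates or sequences are given. Replicate numbers, taken from the titles, were checked by the correlation of same-numbered deviations from group means. It was 0.60, 0.37 and 0.19 for CK with DR, and not above 0.1 in every number for any other pair of groups. Alternatives were other pseudocounts, filters, scalings, a fit of only the groups compared, array weights, the block, and leaving out each library.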

Additional observations from a re-analysis of the deposited data

How the results depend on the processing

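No alternative called either gene between HT and DR, the adjusted p over 44 values running from 0.77 to 1.0. HT less DR was -0.58 (RAP2-3) and -0.52 (ERF071) with upper-quartile scaling, -0.32 and -0.27 by median of ratios, and -0.10 and -0.06 when scaled without the 10 most abundant genes. DH less HT was -0.31 and -0.26 with array weights but 1.56 and 1.87, 1.32 and 1.65, and 1.21 and 1.54 with the 3 scalings in that order, and DH less DR was 0.98 and 1.36, 1.0 and 1.38, and 1.11 and 1.49. The cause was not tested. With 1 library left out, RAP2-3 ranged from -0.53 to 0.91 (HT less DR), -0.45 to 0.99 (DH less HT) and -0.19 to 0.95 (DH less DR), and ERF071 from -0.65 to 1.07, -0.24 to 1.49 and -0.04 to 1.38. Their differences from CK then stayed between 4.23 and 6.56. The heat by drought difference was -3.95, -4.03 and -4.46 (RAP2-3) and -2.92, -3.01 and -3.35 (ERF071) with the 3 scalings, and -6.06 to -4.62 and -5.12 to -3.40 without 1 library. The pair's r stayed between 0.978 and 0.990 without 1 library, and rho between 0.976 and 1.0.

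Counts of all genes, with 2 raised and 6 lowered in HT less DR, moved more. Raised genes were 1 with a pseudocount of 0.01, 0 with no filter and 1 with the filter of 6 libraries; lowered genes were 2, 3 and 1. Lowered genes numbered 17 with upper-quartile scaling, 10 with median-of-ratios scaling, 21 with only the groups compared, 12 with the replicate block and 18 with array weights. DH less HT had 3, 2 and 1 raised genes with upper-quartile scaling, median-of-ratios scaling and array weights. DH less DR had 24 raised and 707 lowered with array weights. Its lowered genes were 0 with either pseudocount and either filter, 3 with upper-quartile scaling, 2 with median-of-ratios scaling and 3 with only the groups compared. Without 1 library the counts ran from 0 to 25 raised and 4 to 15 lowered (HT less DR), 0 to 3 and 0 to 52 (DH less HT), and 0 raised with 0 to 14 lowered (DH less DR).

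The replicate block changed no call of the pair. Same-numbered deviations correlated above 0.1 in every number only for CK with DR, which does not show that those libraries were paired. Elsewhere the block, for samples that share only a number, called 2 of the 16 listed genes raised and 1 lowered in HT. In DR it called 1 and 0, and in DH 3 and 3. The share of all tested genes called with the block is not given here, so these counts cannot be set beside the shares of the main fit. The study chose the listed genes on these same libraries.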
